A study of Homo sapiens with 4 samples.

Results

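Small nucleolar RNAs (snoRNAs), the related small RNAs of Cajal bodies (scaRNAs) and the noncoding genes that carry snoRNAs in their introns were examined in a list of P5CS binding sites. P5CS, the product of ALDH18A1, is a mitochondrial enzyme that starts the synthesis of proline from glutamate. Sites were mapped by LACE-seq, which amplifies cDNA ends from RNA pulled down with an antibody, in the human lung carcinoma line NCI-H1299, with no genetic change or treatment named in the labels. The 4 libraries comprised 2 anti-P5CS and 2 IgG pull-downs. They are represented by 1 list of 17625 sites on hg38 that holds no value per library, so the groups were not compared, depth is unknown, and a listed site is not a measured excess over IgG. Members were the sites whose assigned symbol begins with SNORD, SNORA or SCARNA, or is GAS5, ZFAS1 or a numbered SNHG gene other than SNHG27. This rule took 106 sites in 46 genes. Of these, 34 sites were in 26 C/D box snoRNA genes, 11 in 8 H/ACA box snoRNA genes, 1 in a single scaRNA gene and 60 in 11 noncoding hosts.

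C/D box snoRNAs are named after 2 short conserved boxes and guide 2'-O-methylation of ribosomal RNA through fibrillarin and its partners. H/ACA box snoRNAs fold into hairpins joined by a hinge and guide pseudouridylation through dyskerin. ScaRNAs carry the same boxes but act on spliceosomal RNAs in Cajal bodies. Most human snoRNAs are cut out of spliced introns, and in hosts such as GAS5 and SNHG1 the spliced exons encode no known protein, so the introns hold the conserved product. A few snoRNAs, U3, U8 and U13 among them, are transcribed from genes of their own and serve the cleavage or modification of the ribosomal precursor.

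Of the small RNA genes under a listed site, 84 were not named by the list. By position, 246 sites (1.40%, with a Clopper-Pearson 95% interval of 1.23 to 1.58) overlapped at least 1 base of a snoRNA or scaRNA gene in RefSeq, and together they touched 119 of 573 such genes. Only 91 of the 246 were members by symbol. Of the 246 sites, 46 were assigned to the snoRNA or scaRNA itself, 45 to a noncoding host of the rule, 125 to a protein-coding gene, 2 to another named gene and 28 to a gene with no symbol in the list. All 5 main U3 genes fell in the last group. Intervals here and below cover counting error only, and they are too narrow where sites share a gene.

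**Figure D1:**
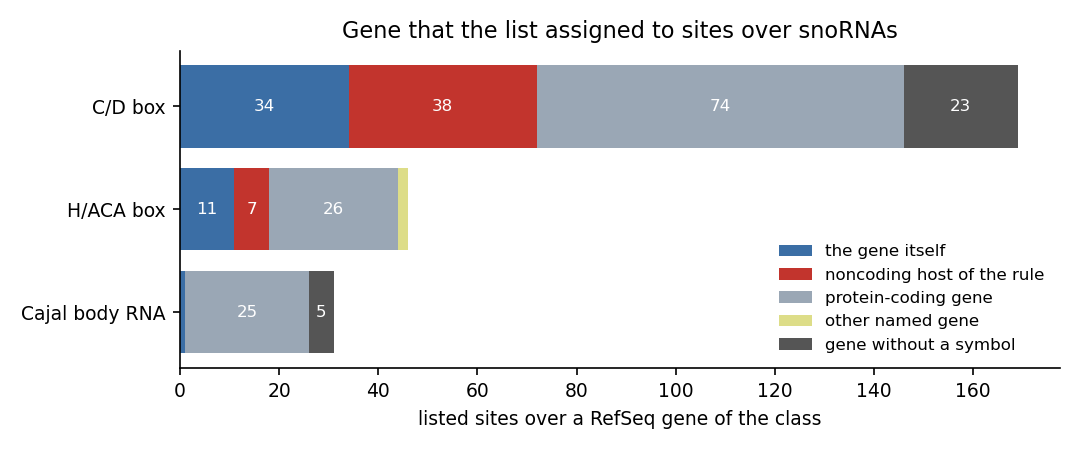
Number of listed sites over a RefSeq gene of each small RNA class (horizontal axis), split by the gene that the list assigned to them. Protein-coding genes took 74 of 169 sites over C/D box genes, 26 of 46 over H/ACA box genes and 25 of 31 over scaRNA genes.

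The classes differed in how many of their genes had a site. A site overlapped 86 of 362 C/D box genes (23.8%, 19.5 to 28.5), 22 of 182 H/ACA box genes (12.1%, 7.73 to 17.7) and 11 of 29 scaRNA genes (37.9%, 20.7 to 57.7). The share over all 59716 RefSeq genes was 7.99%, and over the 9063 other genes no longer than the longest of these small RNA genes (421 bases) it was 8.9%. Of these other short genes, used again below, 5450 were pseudogenes, and so were 534 of the 807 with a site. Only 5 of the 573 snoRNA and scaRNA genes were pseudogenes. The short genes also include the microRNA and small nuclear RNA genes. The interval for H/ACA box genes includes 8.9%, and those for C/D box genes and scaRNA genes lie above it. MicroRNA genes, with a median length of 80 bases against 81 for C/D box genes, had a site in 28 of 1913 (1.46%, 0.975 to 2.11). Small nuclear RNA genes had one in 65 of 154 (42.2%, 34.3 to 50.4). These differences between classes were not tested, and RNA abundance, which these data do not hold, may differ between the classes and was not tested either. With the genes named by the list in place of positions, the 3 shares were 7.18%, 4.40% and 3.45%.

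**Figure D2:**
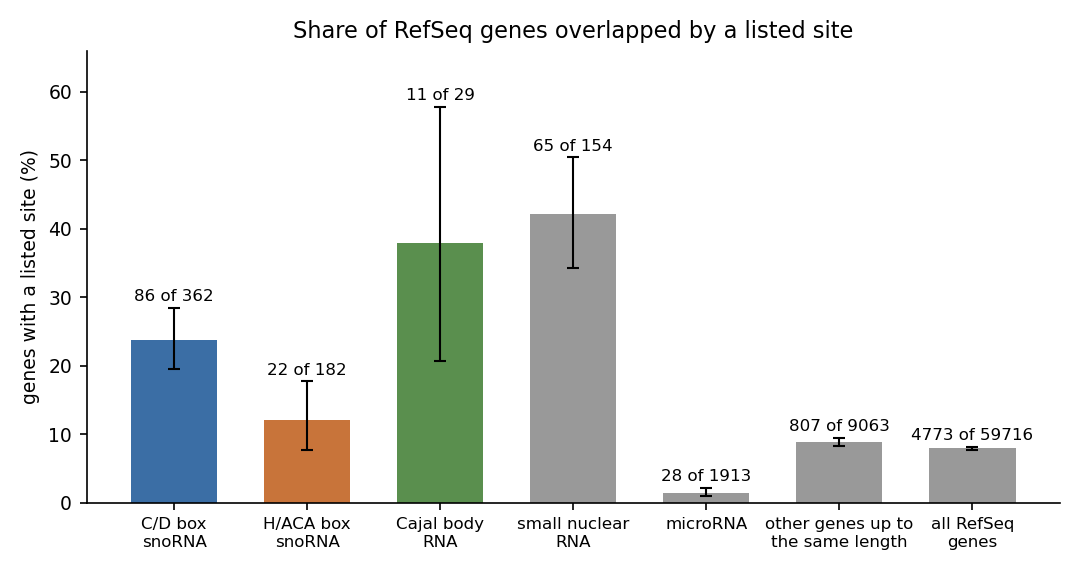
Percentage of RefSeq genes overlapped by at least 1 listed site on either strand (vertical axis, from 0) for the small RNA classes (coloured) and for other genes (grey). Error bars are exact binomial 95% intervals, and labels give genes with a site of all genes. C/D box and scaRNA genes stand above microRNA genes, other short genes and all genes, small nuclear RNA genes have the highest bar, and the interval of H/ACA box genes reaches down to that of other short genes.

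Among the snoRNAs that act in ribosomal RNA processing, nearly every gene had a site. Of 14 such genes, 13 had one (92.9%, 66.1 to 99.8), with a median of 3 sites. Over all snoRNA and scaRNA genes the share was 119 of 573 (20.8%). Most of the 14 are copies of U3 or U14, so they are not separate observations. U3, which base pairs with the ribosomal precursor and is needed to release 18S RNA, had 3 sites in SNORD3A, 4 in SNORD3B-1, 5 in SNORD3B-2, 3 in SNORD3C and 4 in SNORD3D. These 5 genes lie on chromosome 17 between 19061912 and 19190245 and are 217 bases long each. Sites covered 83.4% of SNORD3A and SNORD3B-1, 70.0% of SNORD3C and 65.4% of SNORD3B-2 and SNORD3D. Over the whole U3 family, with its dispersed copies and pseudogenes, 9 of 12 genes had a site. The copies are near-identical, so the count per copy is uncertain.

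U8 (SNORD118), which serves the maturation of 28S and 5.8S RNA, had 2 sites that covered 59.1% of its 137 bases. U13 (SNORD13), which guides acetylation of 18S RNA, had 3 sites of its own on chromosome 8 between 33513480 and 33513580, covering 76.9% of its 104 bases. The plus-strand gene carried 2 of these sites on the minus strand and 1 on the plus strand. U14, another guide of 18S processing, had 4 sites in SNORD14C, 4 in SNORD14E, 2 in SNORD14D and 2 in SNORD14B. The first 3 of these lie in introns of HSPA8, the constitutive HSP70 chaperone, and SNORD14B lies in RPS13. SNORD14A was the only gene of the list with no site. U17, an H/ACA RNA of 18S processing, had 4 sites in SNORA73A and 3 in SNORA73B, which lie in the introns shared by SNHG3 and RCC1 and were covered to 47.3% and 49.8%.

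The imprinted snoRNA arrays stood at the other end. None of the 124 genes of the SNORD113, SNORD114, SNORD115 and SNORD116 arrays and their neighbours had a site (0%, upper limit 2.93), and SNHG14, the host of 83 snoRNA genes, had none over its whole span. Most array genes are neighbouring copies, so they are not separate observations, and the upper limit of 2.93 is too low. The 6 other noncoding hosts examined (MEG3, MEG8, DANCR, CCT6P3, EPB41L4A-AS1 and EPB41L4A-DT) also had none (0%, upper limit 45.9). With so few hosts this cannot be told apart from the 7.99% of all RefSeq genes. The arrays make up 124 of the 362 C/D box genes. Expression of the arrays in this line was not measured here.

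The other C/D box members with 2 or more assigned sites were few. SNORD100, in an intron of RPS12 on chromosome 6, had a minus-strand site from 132816800 to 132816860 and a plus-strand site from 132816800 to 132816880, which together covered all of its 76 bases. SNORD104 on chromosome 17 had 2 sites that covered 76.2% of its 80 bases. SNORD62A and SNORD10 each had a pair of sites with identical coordinates on both strands, and SNORD10 had 3 further sites assigned to its host EIF4A1. SNORD3H, a dispersed copy of U3, had 3 assigned sites that covered 42 of its 210 bases. The remaining 20 C/D box members had 1 assigned site each. Among C/D box genes with a single site, those most covered were SNORD110 (92.0% of 75 bases, in NOP56) and SNORD49A (91.5% of 71 bases, in SNHG29), and the least covered was SNORD89 (4.39%, in RNF149). These 3 were chosen after their values were seen.

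H/ACA box members had at most 2 assigned sites, and each also lay over the snoRNA. SNORA7B had 2 sites, both opposite to the gene, and its near-identical copy SNORA7A, in RPL32, had 4. SNORA74A had a pair on both strands at the same place. SNORA81, in EIF4A2, had a pair over its first bases that was assigned to it and 2 more sites that were assigned to EIF4A2. The other 5 members (SNORA23, SNORA27, SNORA3C, SNORA50C and SNORA73A) had 1 assigned site each. SCARNA10, in NCAPD2, was the only scaRNA among the assigned symbols, with 1 site. By position it had 5 sites, and SCARNA7, in KPNA4, had most with 6, followed by SCARNA2 with 4. SCARNA7 and SCARNA2 were chosen after their values were seen.

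SNORA81 is shown in sequence because it is the single snoRNA here whose RNA is also annotated as a microRNA precursor under listed sites. Of 7 small RNA genes that share bases with a microRNA hairpin in RefSeq (GRCh38.p14), it alone had a site. Among all snoRNA and scaRNA genes 20.8% had a site, so this count is near the general share. The hairpin MIR1248, plus strand, chr3:186786672-186786777, shares 102 of its 106 bases with SNORA81, and all 4 sites of SNORA81 touch it. Capitals mark the 47 bases under a listed site.
MIR1248 hairpin: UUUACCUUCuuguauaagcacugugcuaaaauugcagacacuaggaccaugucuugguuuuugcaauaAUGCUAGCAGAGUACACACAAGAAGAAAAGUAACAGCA
The mature sequence annotated in it is given with its seed, bases 2 to 8, in capitals.
hsa-miR-1248: aCCUUCUUguauaagcacugugcuaaa
The capitals of the hairpin fall in 2 blocks, at its first 9 bases and in its last part, and the stretch between them carries no site. The site pair at the first block reaches the mature microRNA by its 5' bases only, and the data do not show which of the RNAs was bound.

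In the noncoding hosts, most sites sat on the snoRNAs and not on the rest of the gene. Of the 60 sites assigned to hosts, 45 (75%, 62.1 to 85.3) overlapped a snoRNA gene. Counted by position in all hosts, 60 of 76 sites (78.9%, 68.1 to 87.5) lay over a snoRNA inside the host, whereas snoRNA genes made up 3.44% of the span of the 17 hosts with a site. In 9 of these 17 hosts every site was over a snoRNA, and in 3 (SNHG21, SNHG6 and SNHG7) none was. Without any 1 host the assigned share ranged from 71.4% to 79.6%.

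SNHG1, on chromosome 11 from 62851978 to 62855885, had 16 sites, the most of any member. Of these, 13 lay over 7 of its 8 snoRNAs (SNORD22, SNORD25, SNORD26, SNORD27, SNORD28, SNORD30 and SNORD31), and SNORD29 had none. The 3 others lay in exons, 45 and 54 bases from the nearest snoRNA. SnoRNAs take up 15.8% of its span. GAS5, a growth-arrest transcript on chromosome 1, had 11 assigned sites, of which 10 lay over SNORD44, SNORD74, SNORD76, SNORD78, SNORD80 and SNORD81. Its other 5 snoRNAs had no site, and its remaining site lay 1646 bases from the nearest one, outside the RefSeq span of the gene.

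ZFAS1, the antisense neighbour of ZNFX1 on chromosome 20, had 11 assigned sites, 6 of them as 2 over each of its 3 snoRNAs SNORD12, SNORD12B and SNORD12C. The other 5 were the most scattered among hosts, in exons and introns between 83 and 16548 bases from SNORD12. The farthest of them lay outside the RefSeq span of ZFAS1. SNHG5 on chromosome 6 had 8 sites, all of them in pairs with identical coordinates on both strands, with 4 over SNORD50A, 2 over SNORD50B and 2 in an exon 481 bases away. SNHG12 had 4 sites, as a pair over SNORD99 and a pair over the H/ACA snoRNA SNORA44. SNHG17 had 3 sites, of which 2 were over SNORA71A, and SNHG8 had 2 over SNORA24.

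SNHG25 and SNHG29 had 1 assigned site each, over SNORA50C and SNORD49B. The site assigned to SNHG25 lay outside the RefSeq span of that gene. SNHG7 had 1 and SNHG21 had 2, and none of these was over a RefSeq snoRNA. In the annotation of the list, of the 106 member sites 71 (67.0%) were exonic and 10 (9.43%) intronic, against 36.2% and 38.2% in the whole list. The other 25 (23.6%), all assigned to a snoRNA or scaRNA, were placed in the 5' UTR with the annotation text "Promoter". In the whole list 6.21% of sites were placed in the 5' UTR and 1.9% had the promoter text. The 25 sites made up 7.49% of the 334 promoter sites of the list. All 21 exonic sites assigned to small RNA genes were placed in the single exon of the small RNA itself. Most exonic host sites also lay over a snoRNA by position, but most of their labels name an exon of a multi-exon transcript. For host sites the exonic label thus does not tell the small RNA from the rest of the host.

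**Figure D3:**
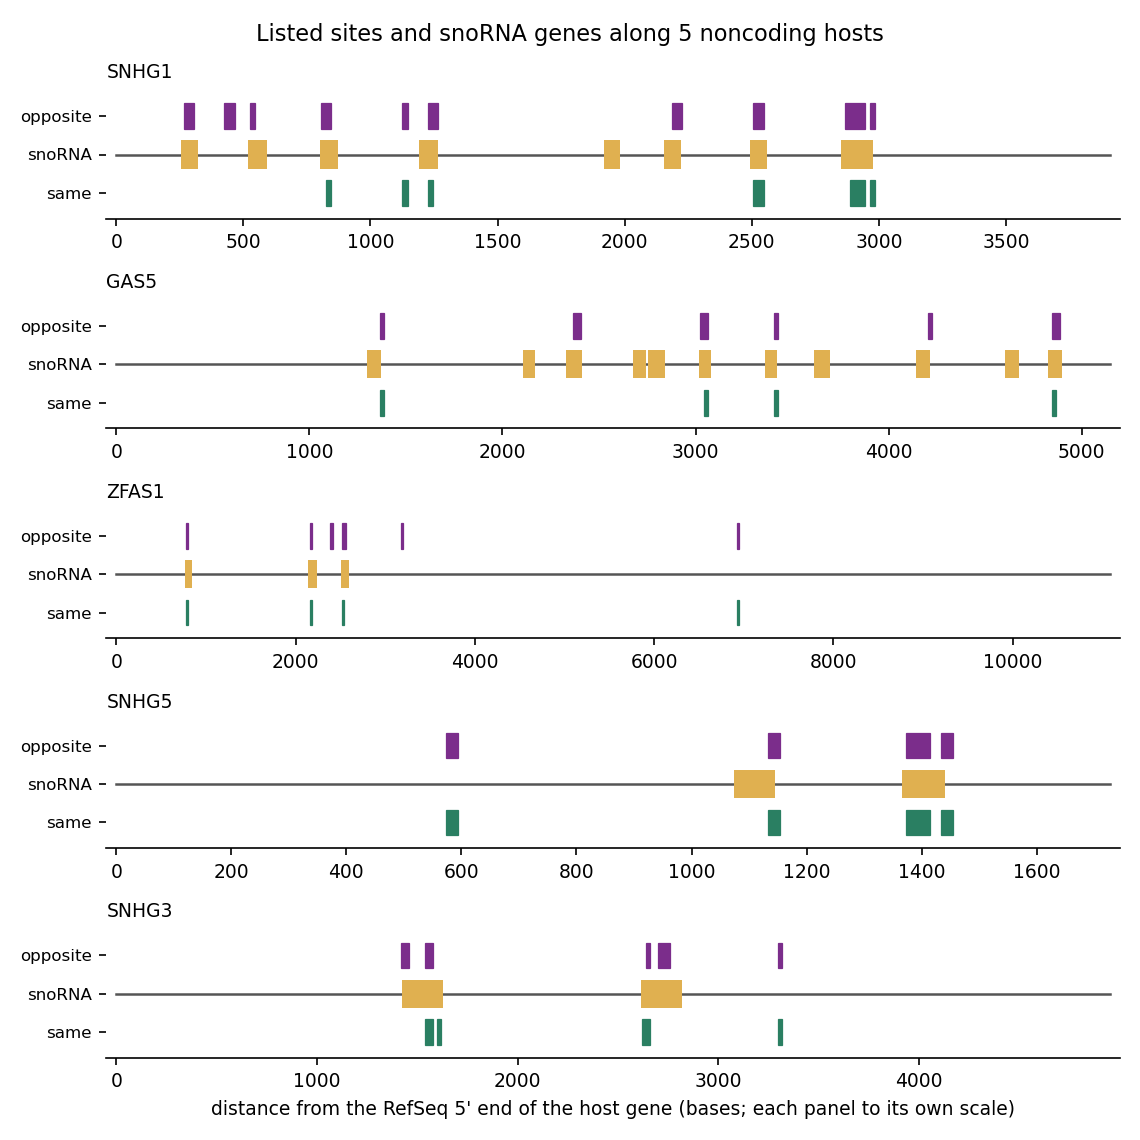
Position of snoRNA genes (yellow, on the line) and of listed sites opposite to the host strand (purple, above) and on it (green, below) along 5 noncoding hosts, in bases from the RefSeq 5' end, each panel to its own scale and transcripts running left to right. Sites stack on the yellow boxes, with 13 of 16 sites over a snoRNA in SNHG1, 10 of 10 in GAS5, 6 of 10 in ZFAS1, 6 of 8 in SNHG5 and 7 of 9 in SNHG3.

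The host starts are shown because many snoRNA hosts are known for a 5' terminal run of pyrimidines, which ties ribosomal protein mRNAs to growth control. No site lay in the RefSeq start window (250 bases before to 50 after the start) of any of the 26 hosts that had one, and a site lay in 0.686% of the 35116 start windows of all genes, so that 0 of 26 is near the general level. The first 30 bases of the 6 hosts with most sites, by their RefSeq start (GRCh38.p14), follow with the leading run of C and T in capitals.
SNHG1, minus strand, chr11:62855856-62855885: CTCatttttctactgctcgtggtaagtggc
GAS5, minus strand, chr1:173869016-173869045: agatgtgtttattttggagcctacaccagc
ZFAS1, plus strand, chr20:49278642-49278671: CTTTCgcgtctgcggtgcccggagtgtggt
SNHG3, plus strand, chr1:28505943-28505972: gattctctaactgcgcatgcttctgcgcac
SNHG5, minus strand, chr6:85678704-85678733: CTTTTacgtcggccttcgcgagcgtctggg
SNHG12, minus strand, chr1:28581844-28581873: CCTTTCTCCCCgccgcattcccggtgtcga
A start with C and an unbroken run of at least 5 C or T, on the strand of the gene, was found in 7 of 26 hosts (26.9%, 11.6 to 47.8) and in 4.07% of 35116 start windows of all genes. In ZFAS1 and SNHG12 this start lies inside the outermost RefSeq span that the host map uses, so distances there are counted from another base. The nearest site to the start was 265 bases downstream in SNHG1, 318 in ZFAS1, 573 in SNHG5, 1365 in GAS5, 1413 in SNHG12 and 1417 in SNHG3. Starts in use in this line were not measured, so the runs and distances hold for the RefSeq start only.

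The share of sites over snoRNAs was lower in protein-coding hosts, and the difference was not tested. RefSeq holds 257 protein-coding genes whose span contains a snoRNA or scaRNA gene whole, and 128 of them had a site (49.8%, 43.5 to 56.1), against 13.5% of all 20050 protein-coding genes. Gene length and expression were not matched in this comparison. Within these genes 154 of 560 sites (27.5%, 23.8 to 31.4) overlapped a snoRNA or scaRNA, which made up 0.210% of the span of the hosts with a site. In 36 of the 128 every site was over such a gene, and in 68 none was. The 4 hosts with most sites carried few or none on their small RNA. FASN, the fatty acid synthase gene, had 38 sites with 2 over SNORD134, and MAD1L1 with 31, TRIO with 28 and SIPA1L3 with 26 had none over theirs. EIF4A2, an RNA helicase of translation initiation, had 15 sites, 11 of them over SNORD2, SNORA81, SNORA63 and SNORA4. HSPA8 had 12 sites with 10 over its U14 genes, and EIF4A1 had 15 with 6 over SNORD10 and SNORA48. RCC1, which shares its snoRNAs with SNHG3, had 7 of 9 over them. All 6 sites of KPNA4, all 5 of NCAPD2 and all 5 of RPS3 lay over a scaRNA or snoRNA. EIF4A2, HSPA8, EIF4A1, RCC1, KPNA4, NCAPD2 and RPS3 were chosen after their values were seen.

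The overlap also reached groups of protein-coding genes named for translation. Of the 117 sites in genes named RPL, RPLP or RPS, which encode proteins of the cytosolic ribosome, 46 (39.3%, 30.4 to 48.8) lay over a snoRNA, and 12 of the 41 such genes with a site had sites over snoRNAs only. Of the 96 sites in EIF genes, 25 (26.0%, 17.6 to 36.0) lay over a snoRNA or scaRNA. In all protein-coding hosts the share was 27.5%. The 2 shares are not alike, since every host holds a small RNA, whereas EIF genes were counted with or without one. Over the whole list the share was 1.40%. These differences were not tested. Whether the mature small RNA, the intron or the unspliced transcript was contacted cannot be told apart from a position.

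**Figure D4:**
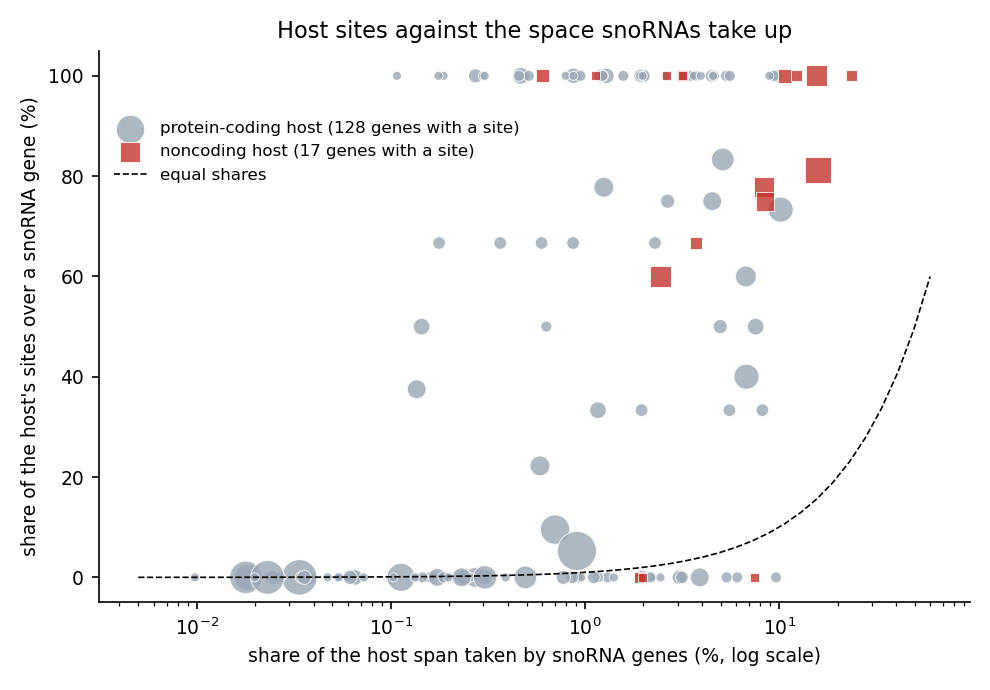
Each point is a host gene with at least 1 listed site (red squares noncoding, grey circles protein-coding, area rising with the number of sites), with the share of its span taken by snoRNA or scaRNA genes on the horizontal log axis and the share of its sites over them on the vertical axis. The dashed curve marks equal shares. Of the 17 noncoding hosts, 14 lie above it, and of the 128 protein-coding hosts 60 had a site over a small RNA while 68 lie at 0%.

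Of 23 genes for core and assembly factors of snoRNA particles, 5 had a site (21.7%, 7.46 to 43.7), and the median was 0. The interval includes the 13.5% of all 20050 protein-coding genes that had a site. RUVBL1, an ATPase of the assembly machinery, had 13 sites, NOP56 6, TCOF1 3, and NOP58 and SHQ1 2 each. NOP56 and NOP58, the scaffold proteins of C/D box particles, themselves host snoRNAs. Of the 6 NOP56 sites 3 lay over SNORD57 and SNORD110, and both NOP58 sites lay over SNORD11B. Fibrillarin (FBL), dyskerin (DKC1), GAR1, NHP2 and NOP10 had none.

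Over all 246 sites on small RNA genes, 155 were on the strand opposite to the assigned gene (63.0%, 56.6 to 69.1), and the interval includes the 58.3% of the whole list. Of the 46 sites assigned to small RNA genes, 38 (82.6%, 68.6 to 92.2) were opposite to the gene, and of the 60 sites assigned to hosts 34 were (56.7%, 43.2 to 69.4), a difference that was not tested. Over all 106 member sites the share was 67.9% (58.2 to 76.7). Pairs with identical coordinates on both strands add 1 site to each side. Without them the share was 74.6% (66.2 to 81.8) for sites on small RNA genes, 91.7% (77.5 to 98.2) for the sites assigned to these genes, 80.6% for all members and 63.7% for the whole list. By gene, 73 of the 119 small RNA genes with a site had sites on both strands, 61.3% against 61.8% of the other short genes with a site. Where sites lay on 1 strand only, 45 of 46 genes had them opposite to the assigned gene (97.8%, 88.5 to 99.9), against 197 of 308 other short genes (64.0%, 58.3 to 69.3). The difference was not tested. The exception was the pseudogene SNORD13P1. Orientation was taken from the gene that the list assigned, which for intronic snoRNAs is the host, and how the list records strand relative to the RNA is not known here.

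Within the small RNA genes the position of sites differed by class. Genes enter this view because a site overlaps them, so that a higher level inside than outside is given by the choice. In the 86 C/D box genes, which have a median length of 80 bases, opposite-strand sites covered on average 40.4% of the gene and at most 2.88% of each 100-base flank. The level lay between 27.7% and 49.5% over 10 equal bins, with the lowest values at both ends. In the 22 H/ACA box genes, coverage peaked past the middle, at 44.3% and 46.5% in bins 6 and 7, and lay between 13.8% and 30.8% elsewhere. Divided in 3 equal parts, 9 H/ACA box genes had a site in the first part, 16 in the middle and 15 in the last. The corresponding counts for C/D box genes were 60, 59 and 62, and for the 11 scaRNA genes 6, 5 and 9. These differences were not tested, and starts and ends fall on a grid of 20 bases that is coarse for genes of this size.

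**Figure D5:**
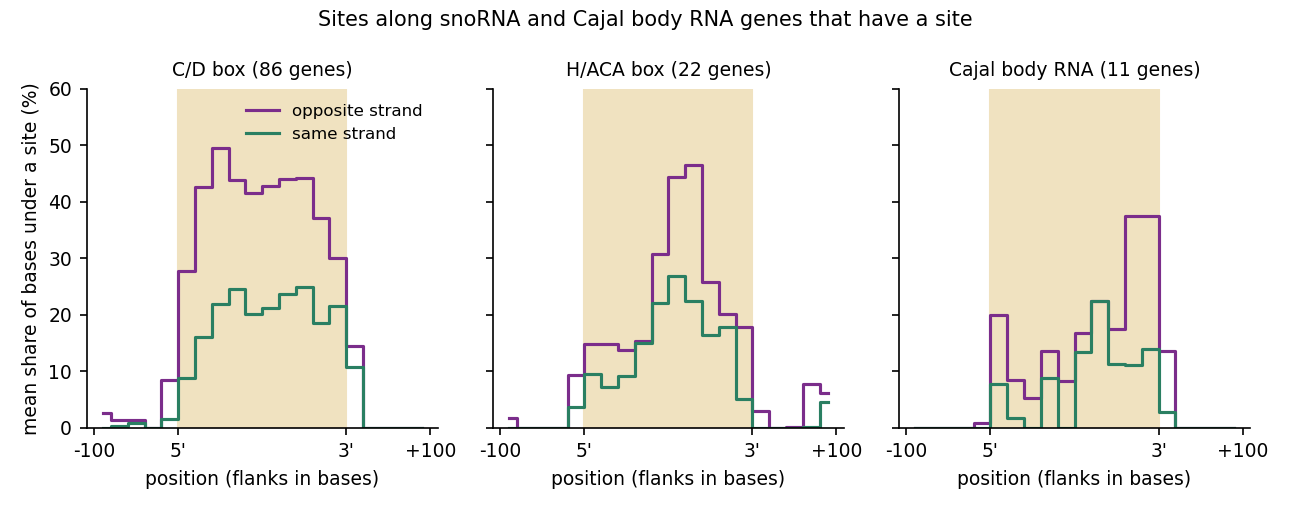
Mean share of bases under a listed site (vertical axis) along small RNA genes with a site, scaled to equal length (shaded, 10 bins) with 100 bases of flank on each side, for sites opposite to the assigned gene (purple) and on its strand (green). C/D box genes form a plateau with a maximum of 49.5%, H/ACA box genes a peak of 46.5% past the middle, and the 11 scaRNA genes are highest in the last bins at 37.5%.

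The median share of bases under a site was 34.7% for C/D box genes with a site, 28.7% for H/ACA box genes and 14.8% for scaRNA genes, whose median lengths were 80, 135.5 and 330 bases. Since 64.2% of member sites had the smallest width of 21 bases, a single site covers less of a longer gene. At most 81 bases were covered by any 1 member site, whereas the widest site of the whole list spanned 2641.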

How the data were processed

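Human LACE-seq data were represented by 1 deposited list of sites with positions, strand, region and assigned gene. Read trimming software fastp 0.23.2, the aligner STAR 2.7.10a and the build hg38 come from the submitters' processing notes. No source used here gives the site caller, its threshold, whether IgG was subtracted or whether replicates were pooled. The members and gene lists were chosen with earlier results of these data known.

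All 17625 starts and ends are multiples of 20. Sites were matched to 59716 RefSeq genes of GRCh38.p14 with a chromosome, whenever they shared 1 base or more, whatever the strand. Genes were classed by symbol. Hosts are genes whose span holds a small RNA gene whole. The planned search for the C box in snoRNA starts was not run, as 0 start windows of snoRNA genes were in the table. Named genes are up to 8 members per class and 4 per list with most sites, and every noncoding host with an assigned site. Other genes named for their values are marked as chosen after these were seen, and snoRNAs within a named host are all listed or counted.

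No test was made, because the list holds 0 columns of values per library. Shares have exact (Clopper-Pearson) 95% intervals. Overlap code was tested on simulated data. Alternatives changed site width, strand pairs, overlap, gene assignment and the genes included. Python 3.11.15, pandas 2.3.3, numpy 2.4.6, scipy 1.17.1 and matplotlib 3.10.9 were used.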

Additional observations from a re-analysis of the deposited data

How the results depend on the processing

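No paired analysis was possible because the list holds no value per library, so the replicate numbers of the labels could not be used. Depth is unknown. With only sites of the smallest width, members fell to 68 sites, 52.9% of them in strand pairs, and 17.4% of C/D box genes had a site. With only wider sites, 21 member genes and 38 member sites were left, of which 78.9% were opposite to the gene and 21.1% in pairs. Sites then lay over 11.05% of C/D box, 6.59% of H/ACA box and 17.2% of scaRNA genes and 36.7% of hosts (56.7% with all sites), and 90% of host sites were over a snoRNA. Without strand pairs, 80.6% of member sites and 74.6% of sites over small RNA genes were opposite to the gene. With at least 50% of the site required inside the gene, 87.0% of sites assigned to small RNA genes overlapped their own gene, instead of 100%. Genes named by the list moved the shares of the 3 small RNA classes further than site width did, to 7.18% of C/D box, 4.40% of H/ACA box and 3.45% of scaRNA genes, and 36.7% of hosts. Protein-coding hosts in place of noncoding ones gave 27.5% of sites over a snoRNA or scaRNA, counted by position. Noncoding hosts gave 78.9% by position and 75% over the sites assigned to them by symbol. These values follow from the sites or genes that each setting removes. The added settings for hosts, for the background of short genes and for all sites over small RNA genes were chosen after seeing the data.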
